A study of Homo sapiens with 25 samples.

Results

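The genes described here are the NF-kB subunits NFKB1, NFKB2, RELA and RELB, the IkB inhibitors NFKBIA, NFKBIB and NFKBIE, the feedback regulators TNFAIP3 and BIRC3, and the adhesion gene ICAM1. They are 10 of the 60179 genes in the deposited RNA table and were all above the filter on low values. They were chosen by name, with earlier results of these data known. The samples were wild-type HEC-1A cells, an established human endometrial adenocarcinoma line, either left untreated or given 20 µM THC (tetrahydrocannabinol), and every group had 3 libraries labelled as biological replicates. RNA and open chromatin (ATAC-seq) were measured in untreated cells and after 24 h and 72 h of THC. The promoter mark H3K4me3 was measured by CUT&RUN in untreated and THC-treated cells, for which the labels give no duration. A single cell line and a single dose limit what the groups can stand for, and no solvent control is named in the labels.

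NF-kB is a family of dimeric transcription factors. In resting cells IkB proteins hold the dimers in the cytoplasm; after a signal the IKK kinases mark IkB for degradation and the dimers enter the nucleus. The canonical arm releases mainly RELA paired with the product of NFKB1. In the noncanonical arm the precursor made from NFKB2 is processed and pairs with RELB. Several family and regulator genes are themselves NF-kB targets: NFKBIA and TNFAIP3 are textbook negative feedback genes, and BIRC3, NFKB2, RELB and ICAM1 are induced in many cell types.

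Promoters of the genes were searched on both strands for the NF-kB consensus decamer GGGRNNYYCC. R stands for A or G, Y for C or T and N for any base. The RefSeq windows held 300 bases (250 before and 50 after a gene start, GRCh38.p14). A window was at hand for 8 of the 10 genes, all but RELB and NFKBIE, and 6 of the 8 held a match, in 7 of their 13 windows. A match was held by 11.3% of all 34959 windows in the table and by 13.3% of all 27193 genes. The windows below are shown because they belong to the genes with the largest RNA changes among those with a window, together with NFKB1, which held a match and had no RNA call, and ICAM1, which had a call and held no match. For NFKB2 and NFKB1 only the windows with a match are shown: start 1 of NFKB2 and start 2 of NFKB1 held none. Capitals mark the matched bases, and neighbouring or overlapping matches run together.
NFKB2, start 2, chr10:102394328-102394627, plus strand: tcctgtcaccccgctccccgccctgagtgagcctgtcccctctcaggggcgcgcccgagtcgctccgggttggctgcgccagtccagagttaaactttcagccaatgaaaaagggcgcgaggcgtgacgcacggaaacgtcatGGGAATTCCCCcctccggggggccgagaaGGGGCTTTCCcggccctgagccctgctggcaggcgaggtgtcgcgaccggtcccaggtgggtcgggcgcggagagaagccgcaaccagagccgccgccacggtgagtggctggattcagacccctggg
NFKB2, start 3, chr10:102395455-102395754, plus strand: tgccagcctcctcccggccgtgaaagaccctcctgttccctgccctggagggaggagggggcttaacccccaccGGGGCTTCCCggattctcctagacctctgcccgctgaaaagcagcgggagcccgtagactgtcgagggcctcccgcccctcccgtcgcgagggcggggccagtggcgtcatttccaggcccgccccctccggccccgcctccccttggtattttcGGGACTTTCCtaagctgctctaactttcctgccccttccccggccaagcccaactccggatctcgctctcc
NFKBIA, chr14:35404700-35404999, minus strand: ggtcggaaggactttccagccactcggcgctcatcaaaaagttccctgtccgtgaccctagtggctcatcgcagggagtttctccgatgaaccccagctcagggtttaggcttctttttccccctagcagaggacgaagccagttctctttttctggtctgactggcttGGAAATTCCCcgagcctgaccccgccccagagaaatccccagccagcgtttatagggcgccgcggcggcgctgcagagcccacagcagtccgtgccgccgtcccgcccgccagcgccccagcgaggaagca
TNFAIP3, chr6:137867009-137867308, plus strand: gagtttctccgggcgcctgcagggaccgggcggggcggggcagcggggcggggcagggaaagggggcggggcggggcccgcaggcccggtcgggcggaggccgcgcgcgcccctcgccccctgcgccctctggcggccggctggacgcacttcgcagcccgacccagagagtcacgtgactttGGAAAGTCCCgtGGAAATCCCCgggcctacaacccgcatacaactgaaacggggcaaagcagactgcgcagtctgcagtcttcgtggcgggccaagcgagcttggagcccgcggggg
BIRC3, chr11:102317234-102317533, plus strand: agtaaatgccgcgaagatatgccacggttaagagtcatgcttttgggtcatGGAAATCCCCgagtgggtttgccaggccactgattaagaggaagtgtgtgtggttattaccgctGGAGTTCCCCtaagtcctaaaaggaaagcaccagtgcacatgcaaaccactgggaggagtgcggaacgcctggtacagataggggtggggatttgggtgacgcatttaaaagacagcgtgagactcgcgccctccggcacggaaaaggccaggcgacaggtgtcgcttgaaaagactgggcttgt
NFKB1, start 1, chr4:102501109-102501408, plus strand: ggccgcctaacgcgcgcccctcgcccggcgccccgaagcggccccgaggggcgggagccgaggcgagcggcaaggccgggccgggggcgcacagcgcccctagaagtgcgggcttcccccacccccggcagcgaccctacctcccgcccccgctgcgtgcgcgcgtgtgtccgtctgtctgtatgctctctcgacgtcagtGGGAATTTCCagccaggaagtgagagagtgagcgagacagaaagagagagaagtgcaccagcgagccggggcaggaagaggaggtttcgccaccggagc
ICAM1, chr19:10270870-10271169, plus strand: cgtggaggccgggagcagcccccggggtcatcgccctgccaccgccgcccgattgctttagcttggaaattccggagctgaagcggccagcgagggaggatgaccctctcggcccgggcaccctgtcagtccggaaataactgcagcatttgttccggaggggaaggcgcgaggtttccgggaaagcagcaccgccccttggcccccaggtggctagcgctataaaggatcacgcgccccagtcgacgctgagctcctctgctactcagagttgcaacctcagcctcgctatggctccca

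The window at start 2 of NFKB2 held 3 matches, among them a palindromic one that is read on both strands and overlaps its neighbour, and the window at start 3 held 2. TNFAIP3 and BIRC3 each held 2. The TNFAIP3 pair began 67 and 55 bases before the start used for its window, chr6:137867259, which lies inside the RefSeq gene span given below. NFKBIA held 1, which began 81 bases before the start, and NFKB1 held 1, which began 49 bases before it. In NFKBIB a window not shown held 3, of which 2 overlap. No match lay in the windows of RELA or ICAM1, where only full matches to the decamer were counted. The ICAM1 window holds tggaaattcc, which differs from the decamer in its first base alone. Near matches of this kind were not counted over all windows, and the NFKBIA window also holds one outside its marked match. Windows with 2 or more matches made up 2.04% of all windows. A match describes the letters only and says nothing of binding. The lack of a match likewise does not mean the lack of a site.

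RNA levels are given in TPM (transcripts scaled to the same total in each library), which corrects for gene length and keeps no read depth, so the depth behind each value is unknown. Changes are differences of log2(TPM + 1) with their standard error from a limma fit over the 9 RNA libraries, and adjusted p-values are Benjamini-Hochberg values over 13753 genes. At 24 h, 9 of the 10 genes rose and none fell, where 25% of all genes tested rose and 51.7% fell. At 72 h, 8 of the 10 rose and none fell, where 40.1% of all genes tested rose and 33% fell. The median change of the 10 genes was 0.94 at 24 h and 1.34 at 72 h, beside medians of -0.23 and 0.06 over all genes tested. Both times were compared with the same 3 untreated libraries. In bulk RNA a change in RNA per cell and a change in the share of cells that carry it cannot be told apart.

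Libraries matched their labelled cell type: all 7 epithelial markers were present, with summed levels of 2935 to 3066 TPM in untreated cells, 4950 to 5147 at 24 h and 3619 to 3862 at 72 h. Of 9 lymphoid and myeloid markers, MS4A1 was at 0 in all libraries, PTPRC was at 0 in 8 of 9 libraries, and only CD68, a lysosomal protein gene, averaged 1 TPM or more. Its mean level was 0.249 TPM in untreated cells, 132 at 24 h and 32.9 at 72 h, so the summed level of that list ran from 0.515 to 0.659 TPM, from 129 to 138 and from 30.5 to 40.6. The stromal sum was 2.96 to 3.21 TPM in untreated cells, 0.537 to 1.08 at 24 h and 0.888 to 1.27 at 72 h. Its fall was that of COL1A1 (means of 2.98, 0.712 and 0.721 TPM), while PDGFRB was higher after THC (0.079, 0.168 and 0.295). COL3A1, DCN and LUM averaged 0.0332 TPM or less in each group. The endothelial sum stayed at or below 0.357. The part of these markers in the results that follow was not tested.

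Because most genes tested were called, the scaling was varied. Centring each library on the median gene moved the share of higher calls from 32.6% to 49.1% at 24 h, from 54.8% to 47.3% at 72 h, and from 75.5% to 44.5% for 72 h against 24 h. Against untreated cells the centred fit called 10 of the 10 genes higher at 24 h and 8 at 72 h. The added call was NFKB1 at 24 h, whose centred change was 0.23 (limma adjusted p = 0.00607).

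**Figure D1:**
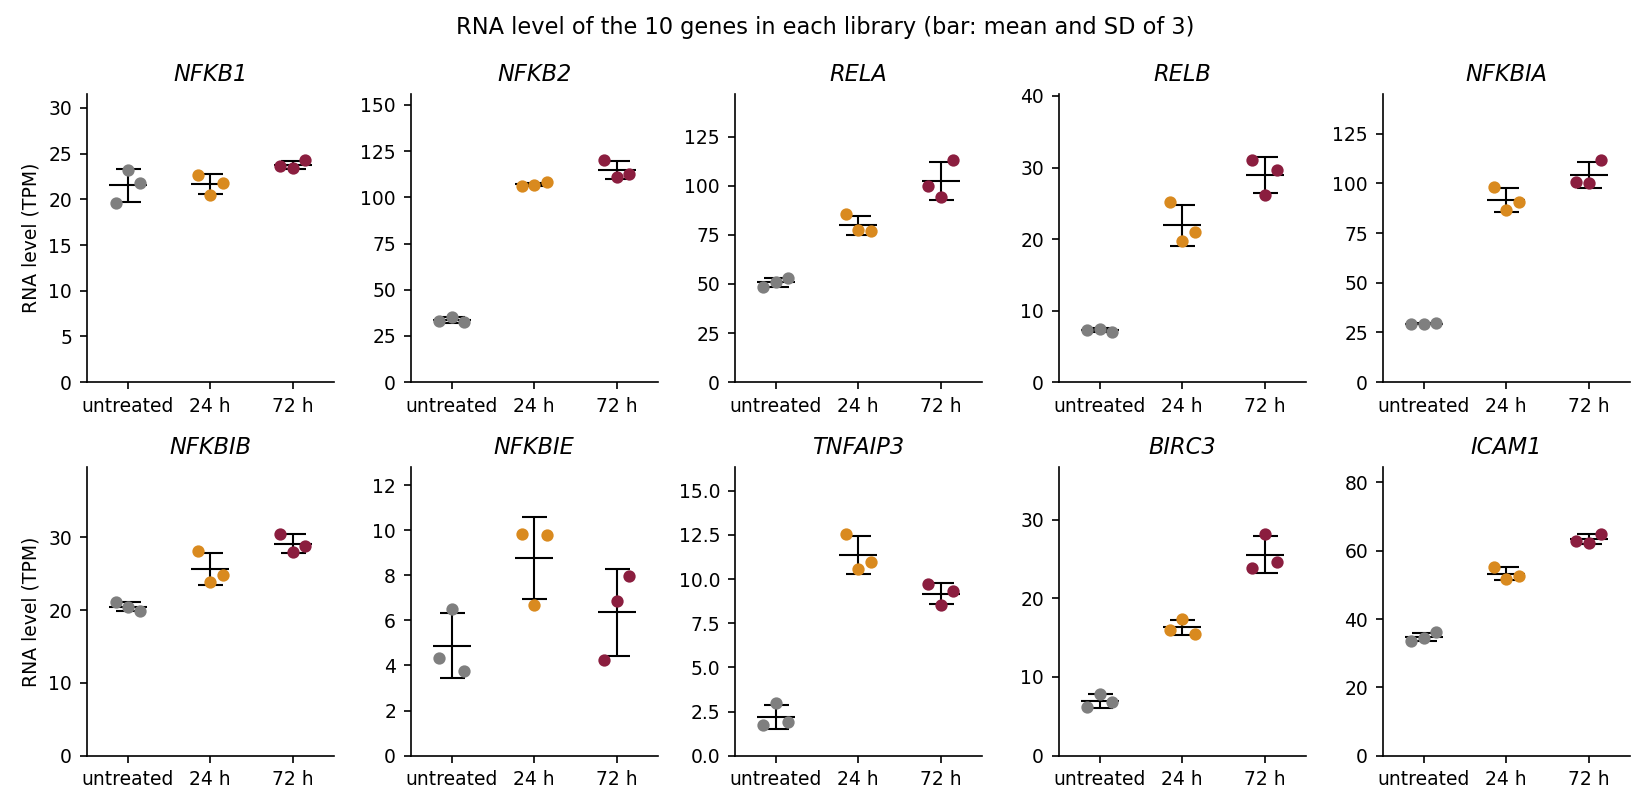
RNA level in TPM (vertical axes from 0) of each of the 10 genes in the 9 RNA libraries, with 1 point per library, and the mean and SD of each group of 3 as a bar. All 3 libraries at 24 h and all 3 at 72 h lie above the untreated libraries for NFKB2, RELA, RELB, NFKBIA, NFKBIB, TNFAIP3, BIRC3 and ICAM1, and the groups overlap for NFKBIE at 72 h and for NFKB1 at 24 h.

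Of the DNA-binding subunits, NFKB2 and RELB rose most, RELA less, and NFKB1 did not pass the test at either time. NFKB2 (chr10:102394110-102402529, RefSeq gene span in GRCh38, as for the genes below) stood at 33.0, 35.2 and 32.6 TPM in untreated cells, at 106, 107 and 108 at 24 h and at 120.1, 111 and 113 at 72 h. The treated libraries all lay above the untreated ones, with little spread among them. Its level was 3.19 times the untreated mean at 24 h (log2 change 1.64, SE 0.05, limma adjusted p = 1.03e-09) and 3.41 times at 72 h (1.74, SE 0.05, limma adjusted p = 7.76e-10). RELB (chr19:45001464-45038192), whose product partners that of NFKB2 in the noncanonical arm, was among the lower genes of the set in untreated cells. RELB was at 7.27, 7.48 and 6.95 TPM untreated, 25.2, 19.7 and 20.9 at 24 h and 31.0, 26.2 and 29.7 at 72 h. Every library at 72 h exceeded every library at 24 h, and these all exceeded the untreated ones. The log2 change of RELB was 1.47 (SE 0.09, limma adjusted p = 2.15e-07) at 24 h and 1.86 (SE 0.09, limma adjusted p = 4.46e-08) at 72 h.

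RELA (chr11:65653601-65663857), the main transactivating subunit of the canonical arm, had the highest untreated level of the 10 genes. Its libraries held 48.6, 50.7 and 53.2 TPM untreated, 85.4, 77.4 and 76.9 at 24 h and 100.1, 94.4 and 113 at 72 h. The 3 groups did not overlap, and the log2 change was 0.64 (SE 0.07, limma adjusted p = 1.45e-05) at 24 h and 0.99 (SE 0.07, limma adjusted p = 6.25e-07) at 72 h. NFKB1 (chr4:102501359-102617302), which encodes the precursor of RELA's usual partner, was at 19.6, 23.3 and 21.7 TPM untreated, 22.7, 20.5 and 21.8 at 24 h and 23.6, 23.4 and 24.3 at 72 h. At 24 h its libraries lay within the untreated range. At 72 h they lay just above it. The log2 change was 0.01 (SE 0.07, limma adjusted p = 0.9) at 24 h and 0.14 (SE 0.07, limma adjusted p = 0.081) at 72 h. Without untreated replicate 2 the 72 h change passed the test at 0.19 (limma adjusted p = 0.0257).

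The make-up of the family in RNA differed between groups. With REL, the remaining subunit gene, added to the 4 members, the summed level was 116 ± 4.69 TPM untreated, 235 ± 8.06 at 24 h and 273 ± 12.9 at 72 h (SD, n = 3 each). RELA held the largest share in untreated cells, 43.7%, and NFKB2 28.9%. At 24 h NFKB2 held 45.7% and RELA 34.0%, and at 72 h NFKB2 held 42.0% and RELA 37.5%. The share of NFKB1 was 18.5% untreated, 9.24% at 24 h and 8.72% at 72 h. RELB went from 6.22% to 9.33% and 10.6%, and REL held 2.66%, 1.70% and 1.11%. For each of the 5 genes the shares of the untreated libraries did not overlap those of either treated group. These are mean shares over 3 libraries, described without a test.

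**Figure D2:**
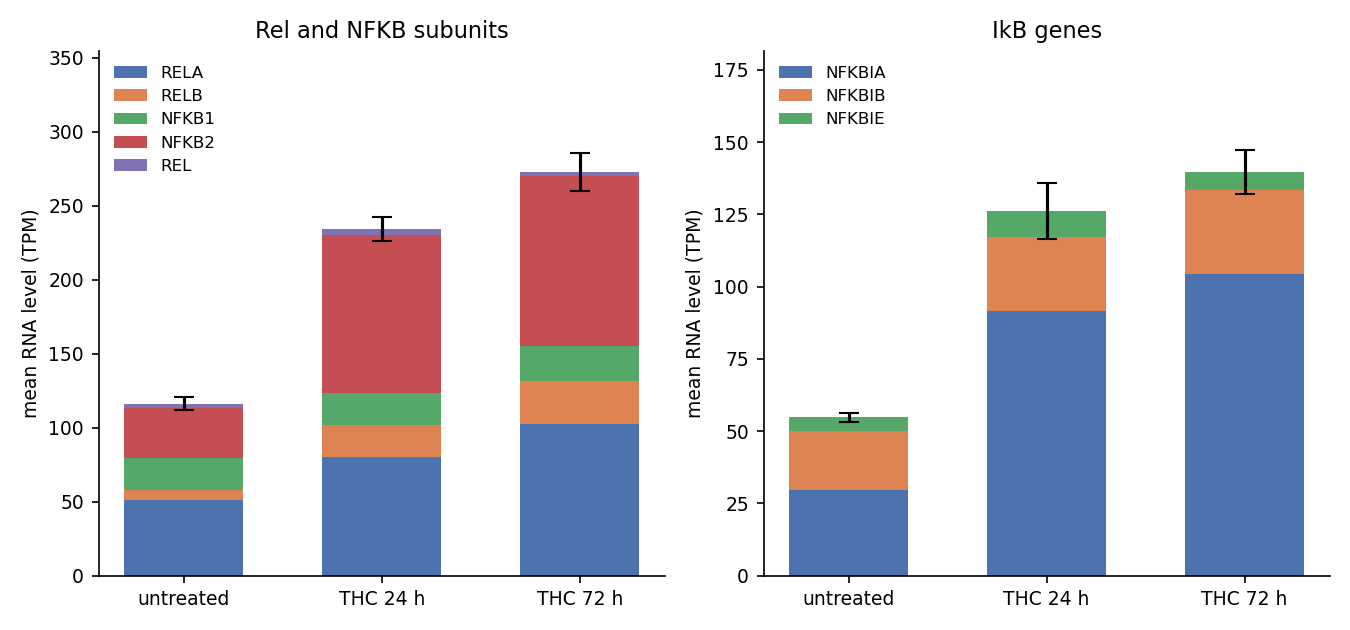
Mean RNA level in TPM of the 5 subunit genes (left) and of the 3 IkB genes (right), stacked, in untreated cells and after 24 h and 72 h of THC, with the SD of the sum over 3 libraries as a bar. The NFKB2 and NFKBIA segments grow most in TPM, while the NFKB1 segment is 21.5, 21.7 and 23.8 TPM.

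Among the IkB genes, NFKBIA rose most, NFKBIB rose less, and NFKBIE passed the test at 24 h only. NFKBIA (chr14:35401513-35404749), the classical inhibitor that is remade after each NF-kB response, was at 29.5, 29.4 and 29.6 TPM untreated, 98.2, 86.4 and 90.6 at 24 h and 100.6, 100.3 and 112 at 72 h. All treated libraries lay far above the narrow untreated range. Its level was 3.11 times the untreated mean at 24 h (log2 change 1.60, SE 0.06, limma adjusted p = 5.43e-09) and 3.53 times at 72 h (1.79, SE 0.06, limma adjusted p = 2.72e-09). NFKBIB (chr19:38899666-38908889), a related cytoplasmic inhibitor, was at 21.1, 20.5 and 19.9 TPM untreated, 28.1, 23.9 and 24.9 at 24 h and 30.5, 28.1 and 28.8 at 72 h. The untreated libraries were the lowest, while the ranges at 24 h and 72 h met. The log2 change of NFKBIB was 0.31 (SE 0.07, limma adjusted p = 0.00157) at 24 h and 0.49 (SE 0.07, limma adjusted p = 6.84e-05) at 72 h.

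NFKBIE (chr6:44258166-44265551), another inhibitor, varied widely between replicates. It was at 4.34, 6.50 and 3.76 TPM untreated, 9.85, 6.68 and 9.78 at 24 h and 4.22, 6.88 and 7.98 at 72 h. The lowest library at 24 h lay just above the highest untreated one, and the 72 h libraries overlapped both groups. The log2 change was 0.75 (SE 0.23, limma adjusted p = 0.0128) at 24 h and 0.32 (SE 0.23, limma adjusted p = 0.231) at 72 h. The call at 24 h was lost without untreated replicate 3 (limma adjusted p = 0.0504), and leaving out replicate 1 at 72 h gave a call there (0.55, limma adjusted p = 0.0392). Summed over the 3 IkB genes the level was 54.8 ± 1.55 TPM untreated, 126 ± 9.62 at 24 h and 140 ± 7.66 at 72 h (SD, n = 3 each), of which NFKBIA made up 53.8%, 72.8% and 74.6%.

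Both feedback regulators rose at both times. TNFAIP3 (chr6:137866349-137883312), which encodes a ubiquitin-editing enzyme that shuts off signalling upstream of IKK, had the lowest untreated level of the set and the largest change of the 10 genes at 24 h. It was at 1.72, 2.99 and 1.91 TPM untreated, 12.6, 10.5 and 10.9 at 24 h and 9.70, 8.50 and 9.32 at 72 h. All treated libraries exceeded the untreated ones, and every 72 h library lay below every 24 h library. Its level was 5.15 times the untreated mean at 24 h and 4.16 times at 72 h. On the log2(TPM + 1) scale, which understates the change of a gene this low, the change was 1.96 (SE 0.13, limma adjusted p = 3.99e-07) at 24 h and 1.69 (SE 0.13, limma adjusted p = 1.38e-06) at 72 h. BIRC3 (chr11:102317484-102339403) encodes a ubiquitin ligase that, with that of BIRC2, acts in tumour necrosis factor receptor complexes and holds the noncanonical kinase down. BIRC3 was at 6.19, 7.86 and 6.80 TPM untreated, 16.02, 17.4 and 15.5 at 24 h and 23.9, 28.2 and 24.6 at 72 h. The 3 groups did not overlap, and the log2 change was 1.13 (SE 0.09, limma adjusted p = 1.38e-06) at 24 h and 1.74 (SE 0.09, limma adjusted p = 6.47e-08) at 72 h.

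ICAM1 (chr19:10271120-10286615), the leukocyte adhesion receptor gene often used as a readout of NF-kB activity, rose less than these. It was at 33.6, 34.5 and 36.1 TPM untreated, 55.4, 51.7 and 52.6 at 24 h and 62.9, 62.3 and 65.0 at 72 h. The groups did not overlap, and the log2 change was 0.60 (SE 0.05, limma adjusted p = 9.61e-07) at 24 h and 0.85 (SE 0.05, limma adjusted p = 8.88e-08) at 72 h. Counting genes whose 3 treated libraries all lay above the 3 untreated ones gave 9 of 10 at 24 h, all but NFKB1, where 25.8% of all genes tested did so. At 72 h it gave 9 of 10, all but NFKBIE, where 41.6% did so.

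**Figure D3:**
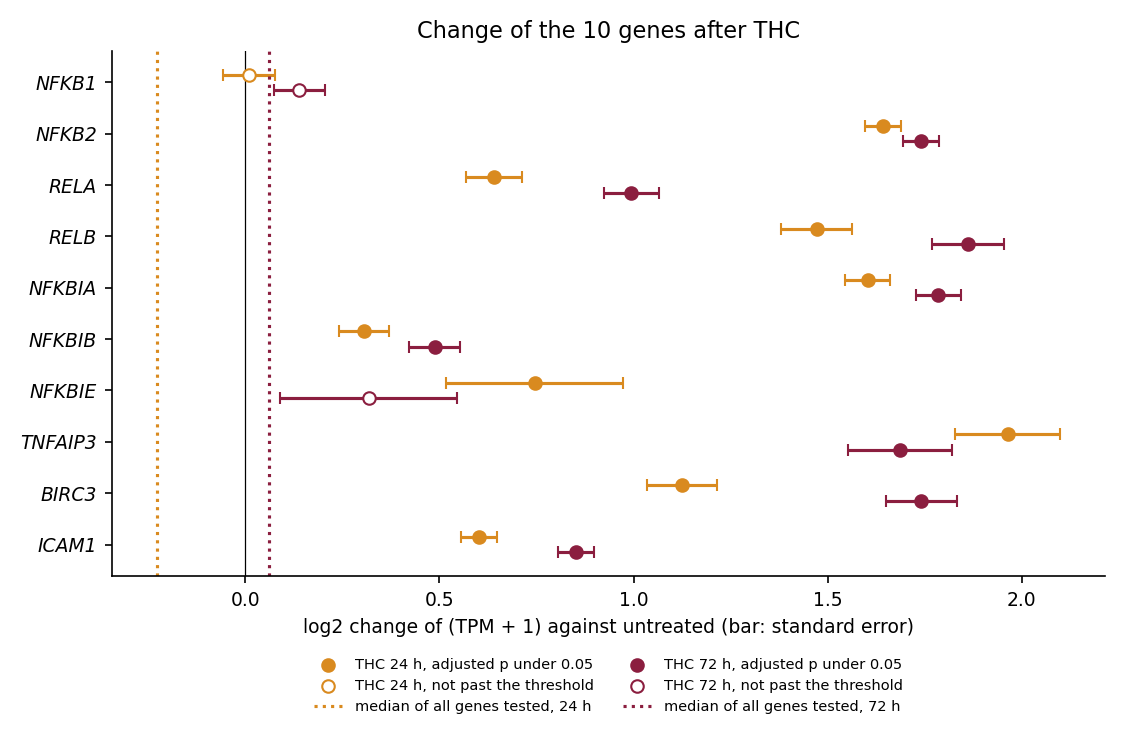
Difference of log2(TPM + 1) against untreated cells for each of the 10 genes at 24 h and 72 h of THC, with the limma standard error as a bar, filled where the adjusted p was under 0.05, and the median of all genes tested as dotted lines. NFKB2, RELB, NFKBIA and TNFAIP3 lie between 1.47 and 1.96 at both times, and BIRC3 lies at 1.13 and 1.74.

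Between the times, 6 of the 10 genes were higher at 72 h than at 24 h in the TPM as deposited, where 54.9% of all genes tested were higher and 17.8% lower. The changes were 0.62 for BIRC3 (limma adjusted p = 0.000149), 0.39 for RELB (0.00324), 0.35 for RELA (0.00118), 0.25 for ICAM1 (0.000719), 0.18 for NFKBIA (0.0167) and 0.18 for NFKBIB (0.0287). In 7 of the 10 genes every library at 72 h lay above every library at 24 h, where 55.4% of all genes tested did so, and in TNFAIP3 every one lay below, where 18.5% did so. Over all genes tested the median change was 0.26, and BIRC3, RELB and RELA exceeded it. Centring gave each library the same median level, and the median change over all genes tested was then -0.047. After centring, 30.4% of all genes tested were higher and 37.9% lower. BIRC3 was the only one of the 10 still called higher (0.31, limma adjusted p = 0.00697). RELA and RELB kept their direction there with no call, and NFKBIA, NFKBIB and ICAM1 turned below 0 with no call. NFKB1 and NFKB2, with no call in the TPM as deposited (0.13 and 0.10), were lower after centring (-0.18 and -0.21). TNFAIP3 and NFKBIE were below 0 in both fits: TNFAIP3 at -0.28 as deposited (limma adjusted p = 0.086) and -0.58 after centring (0.00209), and NFKBIE at -0.43 (0.117) and -0.73 (0.0164). The call of NFKBIA was lost without replicate 2 at 24 h (limma adjusted p = 0.065), replicate 3 at 24 h (0.051) or replicate 3 at 72 h (0.066). That of NFKBIB was lost without replicate 2 at 24 h (limma adjusted p = 0.104), replicate 3 at 24 h (0.0884), replicate 1 at 72 h (0.0968) or replicate 3 at 72 h (0.054).

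The rest of the pathway was taken from 7 lists of genes, also chosen with earlier results of these data known. Their counts are read against those over all genes tested. As deposited, 25% of all genes rose and 51.7% fell at 24 h, and 40.1% rose and 33% fell at 72 h. After centring, 36% rose and 37.3% fell at 24 h, and 34.8% rose and 38.9% fell at 72 h. Of 6 genes listed with the Rel and IkB families, 4 rose and 1 fell at 24 h, and 3 rose and 1 fell at 72 h. NFKBIZ, a nuclear IkB, went from 15.8 ± 0.929 TPM untreated to 55.4 ± 6.29 at 24 h and 35.0 ± 0.425 at 72 h (SD, n = 3 each; log2 changes 1.74 and 1.10). NFKBIL1 rose by 1.20 and 1.07 and NFKBID, another nuclear IkB, by 0.43 and 0.87 on the log2 scale. NKRF, a repressor of some NF-kB promoters and not itself a Rel or IkB gene, fell by 0.26 and 0.43.

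Of 12 genes of the IKK complex and its activating kinases, 3 rose and 4 fell at 24 h, and 2 rose and 1 fell at 72 h, with median changes of -0.11 and -0.06. After centring these counts were 6 and 4 at 24 h, and 2 and 6 at 72 h. As deposited, the share of risers was at or below that of all genes tested at both times, and the counts of so few genes are no result about the list. IKBKB, the catalytic subunit of the canonical arm, rose by 0.42 at 24 h and 0.48 at 72 h. CHUK, the catalytic subunit of the noncanonical arm, fell by 0.62 at 24 h and was at -0.12 at 72 h with no call. MAP3K14, the noncanonical kinase upstream of CHUK, was at 18.4 ± 0.550 TPM untreated, 18.4 ± 2.16 at 24 h and 18.1 ± 0.809 at 72 h (SD, n = 3 each), and was named for its role after its values were seen. TAB1, an adaptor of the kinase that activates IKK, fell by 0.74 at 24 h and was at -0.16 at 72 h. MAP3K8 rose by 0.54 at 24 h and was at 0.09 at 72 h.

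Of 20 adaptors and ubiquitin ligases, 10 rose and 6 fell at 24 h, and 13 rose and 1 fell at 72 h. After centring, 13 rose and 4 fell at 24 h and 13 rose and 2 fell at 72 h, a larger share of risers than among all genes tested in each case. TRAF1, a receptor adaptor, went from 0.524 ± 0.024 TPM untreated to 1.94 ± 0.148 at 24 h and 5.04 ± 0.280 at 72 h (SD, n = 3 each). It passed the filter of 1 TPM through its treated libraries, so its rise and its entry into these counts are linked. IRAK2, a kinase of interleukin-1 and Toll-like receptor signalling, went from 4.89 ± 0.053 TPM to 9.65 ± 0.167 and 20.4 ± 0.585. RBCK1, a subunit of the linear ubiquitin ligase, went from 109 ± 6.53 TPM to 319 ± 9.76 and 305 ± 10.0. TRAF3IP2, an adaptor of interleukin-17 signalling, rose by 1.51 at 24 h and 0.73 at 72 h. TRAF1 and IRAK2 were thus higher at 72 h than at 24 h, and TRAF3IP2 lower, also after centring.

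Among 11 of 13 negative regulators that could be tested, 3 rose and 3 fell at 24 h, and 6 rose and none fell at 72 h. After centring, 6 rose and none fell at 24 h and 5 rose and 3 fell at 72 h. The share of risers at 24 h as deposited was near that of all genes tested, and the counts are no result about the list. ZC3H12A, a ribonuclease that degrades inflammatory messenger RNAs, went from 4.27 ± 0.284 TPM untreated to 39.9 ± 2.73 at 24 h and 21.8 ± 2.22 at 72 h (SD, n = 3 each). TNIP1, a partner of the TNFAIP3 protein, rose by 0.53 at 24 h and was at 0.03 at 72 h, while its relative TNIP2 was at 0.12 with no call at 24 h and rose by 0.57 at 72 h. CYLD, a deubiquitinase, was at -0.02 with no call at 24 h and rose by 0.55 at 72 h.

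Receptors and ligands of the pathway were tested in part. Of 11 of 18 receptors tested, 5 rose and 2 fell at 24 h, and 5 rose and 3 fell at 72 h (7 and 2, and 5 and 4, after centring). At 72 h these shares were near those of all genes tested. TNFRSF10B, a death receptor, rose by 1.39 and 0.83 at the 2 times, FAS, another, fell by 1.01 and 1.12, and TNFRSF12A rose by 1.06 at 24 h and was at 0.11 with no call at 72 h. TLR3, a sensor of double-stranded RNA, fell by 0.59 at 24 h and rose by 0.98 at 72 h. Only 3 of 13 ligands passed the filter: TNFSF15 (2.60 and 0.45) and IL18 (2.03 and 0.74) rose and TNFSF10 fell (-1.66 and -1.11) at the 2 times. TNF, the prototype inducer, named for its role after its values were seen, was under the filter, with means of 0.036, 0.039 and 0.107 TPM in the 3 groups.

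Of 19 other NF-kB target genes tested, of 31 found in the table, 15 rose and 4 fell at 24 h, and 12 rose and 5 fell at 72 h, with median changes of 0.89 and 0.65. After centring, 15 rose and 3 fell at 24 h and 12 rose and 6 fell at 72 h. Some of these genes passed the filter of 1 TPM only through their treated libraries, among them CXCL3 (means of 0.427, 1.68 and 1.24 TPM) and CSF2. For those genes the rise and the entry into these counts are linked. Ranked by the larger of the changes at the 2 times on the log2(TPM + 1) scale, the first 4 were LCN2 (3.67 and 4.55), CCL5 (4.40 and 1.15), IL32 (2.82 and 2.47) and GADD45B (2.15 and 1.14). By the 72 h change alone several other targets stood above CCL5 and GADD45B, among them CSF2, a growth factor gene named after its values were seen (2.05 and 1.77), with means of 0.043, 3.32 and 2.57 TPM. Of these LCN2 was higher at 72 h than at 24 h, and the other three were lower. Several classical targets were at or near 0 in every group, among them SELE, which was at 0 throughout, VCAM1 and IL6, all named for their standing as targets after their values were seen. Unlike ICAM1, they could not be tested.

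**Figure D4:**
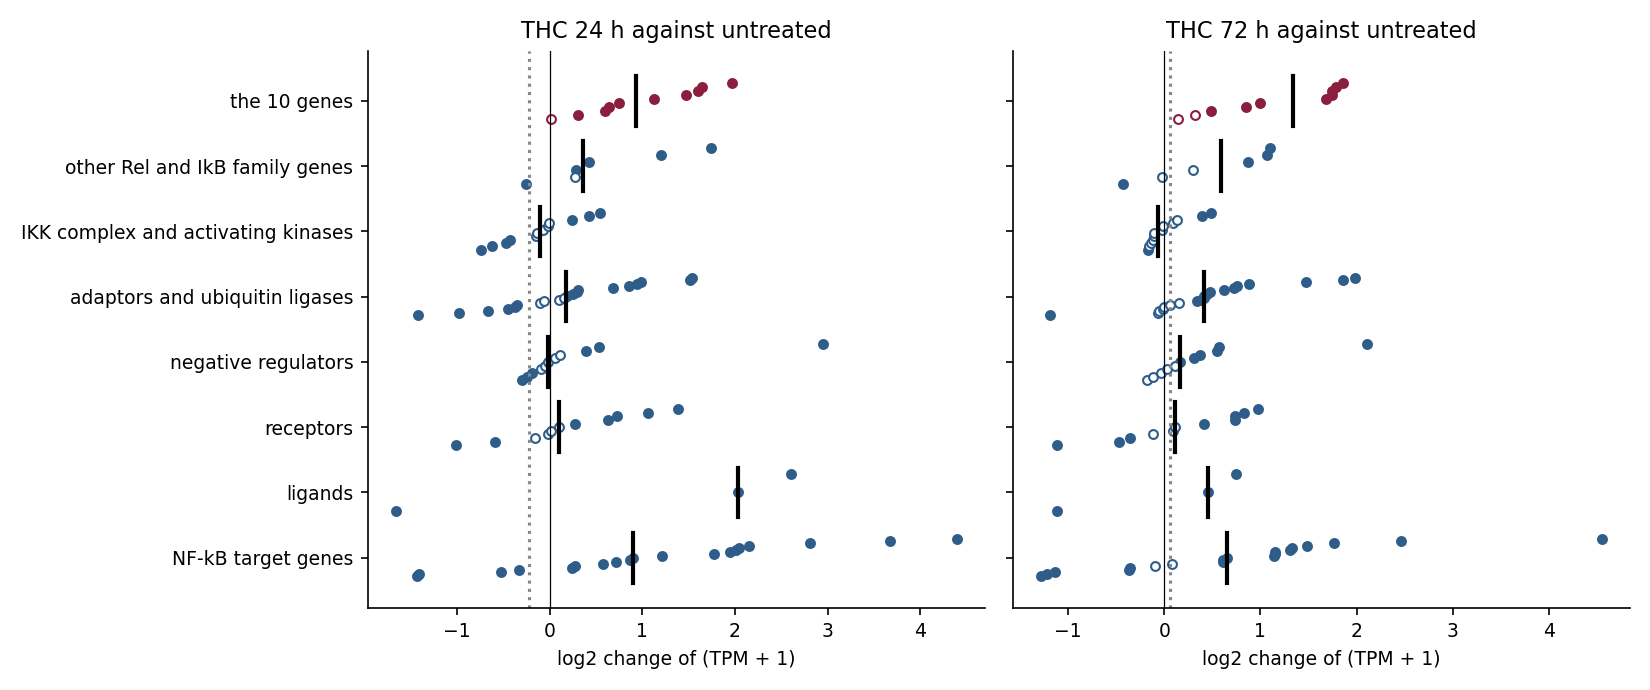
Difference of log2(TPM + 1) against untreated cells at 24 h (left) and 72 h (right) for the 10 genes and each tested gene of the 7 pathway lists, with 1 point per gene, filled where the adjusted p was under 0.05, the list median as a black bar and the median of all genes tested as a dotted line. The medians of the 10 genes, 0.94 and 1.34, lie to the right of those of the IKK list, -0.11 and -0.06.

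The profiles most like those of 9 of the genes over the 9 libraries were found by the root mean square difference of log2(TPM + 1), set to the untreated mean, among 10601 genes. NFKB2 was followed most closely by ATF4, a stress response transcription factor gene, at a difference of 0.09, and then by the cathepsin gene CTSL. BIRC3 was nearest to CEBPG, another transcription factor gene, at 0.07. RELB was nearest to KCP at 0.09, RELA to TMEM79 at 0.06, and ICAM1 to SEC13 at 0.05. NFKBIB was nearest to NUCB1 at 0.03, and NFKB1 to FAM86JP at 0.04. NFKBIA was nearest to THBD at 0.12 and TNFAIP3 to SNHG7 at 0.15, less close than the others named here. These are descriptions of likeness over few libraries.

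Chromatin peaks were listed at or near these genes before treatment and after it. Peaks were called by the authors in each library separately, and a gene was counted where a peak reached within 1000 bases of a RefSeq start, or of either end of the gene for RELB and NFKBIE. H3K4me3 peaks were listed for 10 of 10 genes in all 6 libraries, where 93.8% of the RNA-tested genes and 45.9% of all genes with a start had them in all 6. ATAC peaks were listed for 9 of 10 genes in all 9 libraries, where 80.1% of the RNA-tested genes and 38.5% of all genes with a start had them. With only peaks of −log10 q of at least 5, it was 2 of 10 genes, BIRC3 and NFKBIB, where 26.2% of the RNA-tested genes and 12.2% of all genes with a start had them. In the full lists the exception was NFKBIE, with no peak in replicate 2 at 72 h. RELB also had none at its lower-coordinate end in that library. It was counted through its other end, where the region (chr19:45038919-45039627) lay 727 bases outside the gene. The shares over all genes count starts only, so taking either end for RELB and NFKBIE is the more lenient rule. That library had the shortest list, 38495 peaks, where the others held 51017 to 150884. Without it, 10 of 10 genes had a peak in every library.

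No gene of the 10 gained or lost a peak, that is, had one in 3 of 3 THC libraries and in none of the untreated ones, or the reverse. Over all genes with a start, ATAC peaks were gained at 0.0221% and lost at 0.522% by 24 h, and gained at 0.0184% and lost at 0.802% by 72 h. H3K4me3 peaks were gained at 0.0919% and lost at 0.0331%. At that background a count of 0 among 10 genes is near what all genes show.

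The peaks differed in extent between genes. H3K4me3 peaks over NFKB1 spanned 6876 to 7755 bases and those over NFKBIA 4444 to 6389, while those over TNFAIP3 spanned 1916 to 2648. For TNFAIP3 the authors' fold enrichment of these peaks ran from 11.9 to 22.9, the lowest range of the set, and for NFKBIB it ran from 36.9 to 57.5. ATAC peaks were most enriched at NFKBIB and BIRC3. In BIRC3 the authors' fold enrichment ran from 8.82 to 10.99 in untreated cells, 8.95 to 10.5 at 24 h and 7.04 to 10.1 at 72 h, at or above the 93.9th percentile of each list. In NFKBIB it ran from 9.05 to 10.7, 9.54 to 10.7 and 7.24 to 8.96. The ATAC peak covered 408 to 483 bases around the BIRC3 start in untreated cells, 363 to 410 at 24 h and 376 to 429 at 72 h.

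At NFKBIA the ATAC peaks covered 981 to 1047 bases in untreated cells, 617 to 1298 at 24 h and 634 to 1300 at 72 h. At TNFAIP3 they covered 563 to 815, 778 to 819 and 332 to 800 bases. For ICAM1 they covered 302 to 438, 302 to 489 and 229 to 541 bases. Peak values from lists of different lengths are no measure of change, and the lists differ in length for reasons that were not tested.

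**Figure D5:**
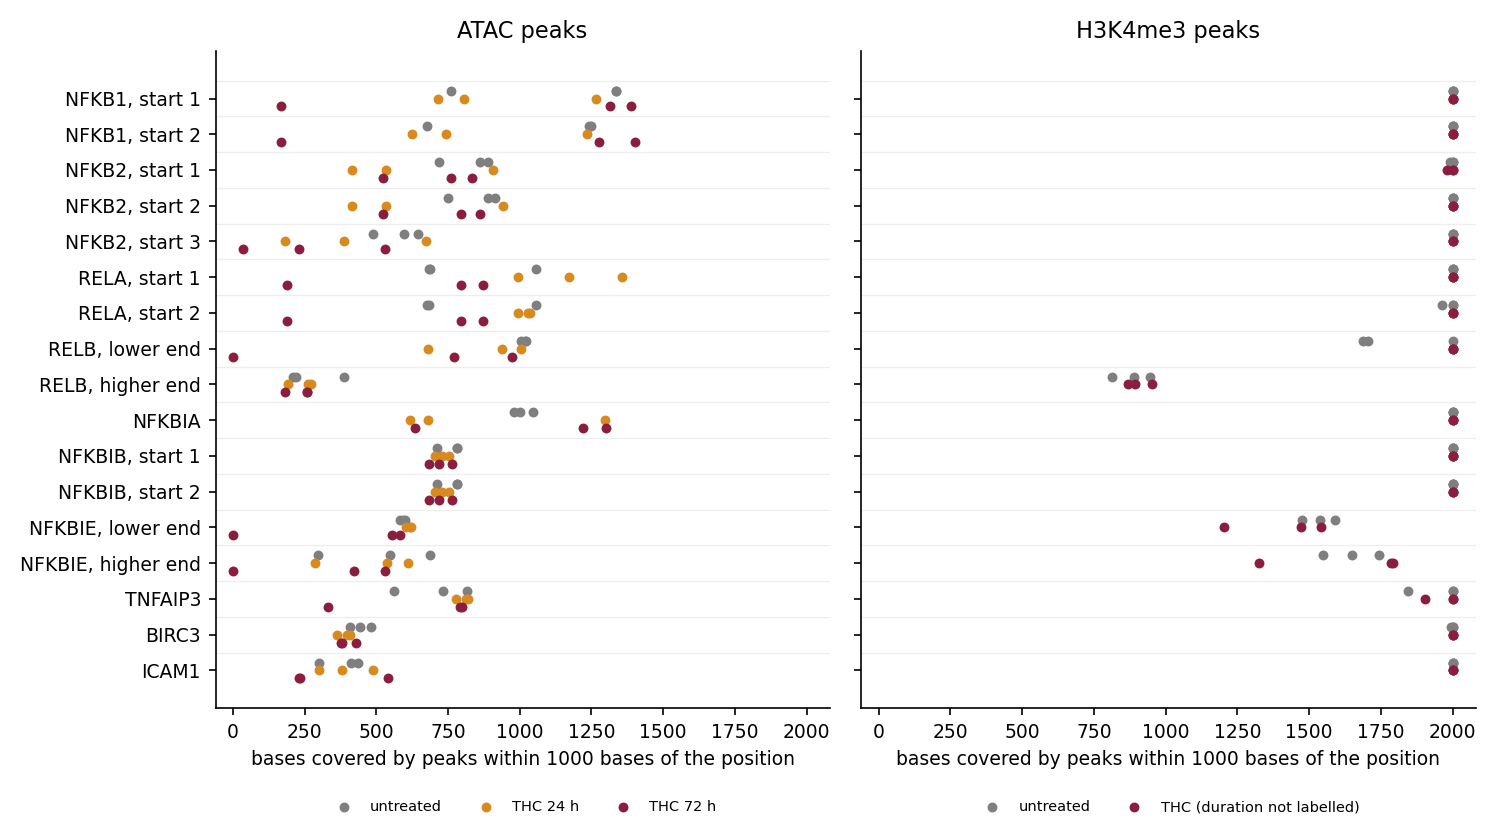
Bases covered by peaks within 1000 bases of each gene start, or of each gene end for RELB and NFKBIE, for ATAC (left; untreated, 24 h, 72 h) and H3K4me3 (right; untreated, THC), with 1 point per library. H3K4me3 covers the full 2001 bases at most starts, ATAC covers part of them, and the points at 0 are from replicate 2 at 72 h.

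Around the 10 genes (the gene and 10000 bases on each side) 55 ATAC regions were listed in at least 1 library, of which 11 were in all 9, and 37 H3K4me3 regions, of which 22 were in all 6. One ATAC region was lost and none was gained. It lay outside the gene, 1379 bases before ICAM1 at chr19:10269613-10269741 (129 bases), and was listed in 3 of 3 untreated libraries, 1 of 3 at 24 h and 0 of 3 at 72 h. Of all 239554 ATAC regions 1.27% were lost by 72 h and 0.0935% were gained (0.692% and 0.0806% by 24 h), so 1 of 55 is near the background. No H3K4me3 region around the genes was gained or lost, where 0.642% and 0.388% of all such regions were.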

How the data were processed

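The RNA values are TPM that the authors deposited for 9 libraries, each summing to 1000000, and each gene was matched to its symbol by Ensembl ID (59918 of 60179). Per the submitters' processing notes the build was GRCh38 and the tools included MACS2 2.2.7.1, MACS3, Salmon, Picard and Bowtie2, without roles. Broad ATAC peaks and narrow H3K4me3 peaks were deposited per library, with the fold enrichment, the −log10 p and q and a score for each peak, as the authors' peak caller wrote them; the score was not used. The IgG sample was not analysed here, and 0 columns were left unused.

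The 13753 genes that averaged 1 TPM or more were tested with limma 3.58.1 in R 4.3.3 on log2(TPM + 1), using 1 fit over 3 groups, empirical Bayes moderation with a trend, Benjamini-Hochberg adjustment and a threshold of 0.05. Peaks and promoters were counted in Python 3.11.15 with pandas 2.3.3. The scripts for genes and peaks were tested on simulated data. Named genes were the 10 members, up to 4 called genes with the largest change in each list, and for likeness the nearest genes averaging 5 TPM or more; exceptions are marked in the text. The members and lists were chosen with earlier results of these data known. Some genes of the lists and of the likeness search are not reported here. Alternatives varied the pseudocount, filter, scaling, block, trend, groups fitted, replicates, window, overlap and peak threshold.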

Additional observations from a re-analysis of the deposited data

Results flagged for a closer look

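The change from untreated cells differed between 24 h and 72 h for 6 of the 10 genes, by the limma test of 72 h against 24 h in the TPM as deposited. Of all genes tested 54.9% were higher at 72 h and 17.8% lower, so a count of 6 is near the background. The difference on the log2(TPM + 1) scale was 0.62 for BIRC3, 0.39 for RELB, 0.35 for RELA, 0.25 for ICAM1, 0.18 for NFKBIA and 0.18 for NFKBIB, all higher at 72 h. For BIRC3, RELB, RELA, ICAM1 and NFKBIA each library at 72 h lay above each library at 24 h, and for NFKBIB the groups overlapped. After centring each library on the median gene, BIRC3 remained called at 0.31, RELA and RELB were at 0.05 and 0.09 with no call, and NFKBIA, NFKBIB and ICAM1 were at -0.12, -0.12 and -0.06.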

How the results depend on the processing

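Against untreated cells, 177 of 180 values of the 10 genes at 24 h and 178 of 180 at 72 h kept direction and call under the alternatives; for 72 h against 24 h it was 157 of 180. Centring each library on its median reversed 5 of the latter: NFKB1 (-0.18), NFKB2 (-0.21), NFKBIA (-0.12), NFKBIB (-0.12) and ICAM1 (-0.056). By construction centring gives each library the same median level. The median change of all genes tested for 72 h against 24 h was 0.26 before it and -0.047 after it. The cause of this shift was not tested. NFKBIE at 24 h lost its call without a filter on low values (limma adjusted p = 0.0505), and TNFAIP3 for 72 h against 24 h gained one with a pseudocount of 5 TPM (limma adjusted p = 0.0285), with only the 2 groups fitted (0.0197) and without untreated replicate 2 (0.0151). NFKBIB for 72 h against 24 h also lost its call without a filter (limma adjusted p = 0.0518), rescaled without mitochondrially encoded genes (0.0565) and with only the 2 groups fitted (0.0524). For the same comparison NFKBIE gained a call, as lower at 72 h, with 1 replicate left out (lowest limma adjusted p = 0.0493). Without 1 replicate each, the genes called numbered 10016 to 10528 at 24 h, 9507 to 10229 at 72 h and 9344 to 9963 between the times.

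Same-numbered libraries did not deviate together (correlations from -0.199 to 0.252), so the numbers were not taken to pair the samples. With the replicate block 10577 genes were called at 24 h, 10077 at 72 h and 10032 between the times, and no call of the 10 genes moved. The peak counts were given no test, so no block was fitted to them.

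Keeping only peaks with a −log10 q of at least 5 left 2 genes, BIRC3 and NFKBIB, with an ATAC peak in all 9 libraries in place of 9, where 26.2% of the RNA-tested genes had one in place of 80.1%. A window of 500 bases left 8, and leaving out 1 library gave 9 to 10. H3K4me3 stayed at 10 genes, and gains and losses at 0, under each peak alternative. TPM carries no depth, and the peak files carry no read counts.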
